A study of Mus musculus with 4 samples.

Results

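The miR-30 family of microRNAs was followed in NIH-3T3 cells, a line derived from mouse embryo fibroblasts, treated or not with thapsigargin, an agent that stresses the endoplasmic reticulum (ER). Members were taken by name. Reads that matched 1 miRNA only were summed per name over mmu-miR-30a, mmu-miR-30b, mmu-miR-30c, mmu-miR-30d and mmu-miR-30e, with or without a hairpin number and a star (as in mmu-miR-30a* and mmu-miR-30c-2*). This gave 11 of the 628 miRNA arms with reads, and all 11 were seen in all 4 libraries. They are 5 mature arms (miR-30a to miR-30e, cut from the 5′ side of their hairpins) and 6 star arms (miR-30a*, miR-30b*, miR-30c-1*, miR-30c-2*, miR-30d* and miR-30e*, from the 3′ side). The control group held 2 libraries of untreated cells, and the thapsigargin group held 2 libraries of cells given 500 nM for 24 h. Cells of both groups were seeded at 1 density and grown until confluent, and total RNA went into a small RNA library kit. Thapsigargin blocks the SERCA pump that loads the ER with calcium. All libraries are of 1 cell line, with no genetic change named in the labels. The labels do not say whether replicates were separate cultures, so p-values measure only the spread between these libraries, which may be technical.

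A miRNA hairpin is cut by Drosha and Dicer into a pair of arms, and usually one arm, the mature arm, is kept in Argonaute while the other, the star arm, is mostly lost. Bases 2 to 8 of the kept arm, the seed, pair with target mRNAs, so a shift of the 5′ end by a base gives another seed. The mature miR-30 arms share 1 seed and are abundant in many mesenchymal and epithelial cells. The star arm miR-30c-2* (miR-30c-2-3p) is known from work on ER stress as an arm that rises in the unfolded protein response and acts on the mRNA of XBP1, a transcription factor of that response.

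The mature sequences below, from RefSeq on GRCm38.p6, show where the family is alike and where it differs, with the seed in capitals. The table held 7 of the 11 arms by name.
miR-30a: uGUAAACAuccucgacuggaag
miR-30e: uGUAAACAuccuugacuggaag
miR-30c: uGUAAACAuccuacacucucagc
miR-30a*: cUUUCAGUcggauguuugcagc
miR-30e*: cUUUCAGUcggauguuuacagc
miR-30c-1*: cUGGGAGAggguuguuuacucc
miR-30c-2*: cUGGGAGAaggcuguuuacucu
Counted from 1 at the 5′ end, miR-30a and miR-30e were the same at 21 of 22 bases (C13U, miR-30a base first), and their star arms at 21 of 22 (G18A). miR-30a and miR-30c were the same at 17 of 22. The star arms of the miR-30c hairpins share a seed and were the same at 19 of 22 (G9A, U12C and C22U, miR-30c-1* base first). Their seed, UGGGAGA, was also held by miR-6958-5p. Of 1679 mature sequences in the table, the seed GUAAACA was held by miR-30a, miR-30c, miR-30e and miR-384-5p, and miR-384-5p had 1 read in control replicate 2 and 0 in the other libraries. A count of 0 allows a level of up to 1.12 CPM in the smallest library, where CPM is reads scaled to a library of 1e+06 arm reads.

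Both miR-30c hairpins give the same mature sequence, so a miR-30c read cannot be traced to its gene, while the star arms can. The deposited files give no coordinates. On GRCm38.p6, Mir30a lies at chr1:23272269-23272339 (plus strand) and Mir30c-2 at chr1:23291701-23291784 (plus strand), where it overlaps an exon of the long noncoding RNA gene Gm27028. Mir30c-1 lies at chr4:120769534-120769622 and Mir30e at chr4:120772606-120772697, both on the minus strand and within introns of Nfyc, a subunit of the NF-Y transcription factor. Mir30a overlapped no host gene in the GENCODE M21 annotation. The 2 star arms of miR-30c thus report on hairpins on different chromosomes.

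Reads that named 1 arm numbered 3857002 (replicate 1) and 3633414 (replicate 2) in the control libraries and 5570971 (replicate 1) and 2685965 (replicate 2) in the thapsigargin libraries. In that order, the miR-30 family took 40301, 28637, 48223 and 20862 of these reads, or 1.04%, 0.788%, 0.866% and 0.777%. Reads that named a miR-30 arm together with another miRNA, left out here, numbered 50, 27, 52 and 16. Of 8 arms listed as fibroblast markers, 7 were present with 1953198 to 3677689 reads in sum per library, while lists for epithelium, muscle, liver and embryonic stem cells had 0 to 7 reads each. The blood list had 180 to 609 reads and the neural list (miR-124 and miR-9) 820 to 4073. Of these, miR-155 alone had 178 to 598 of the blood reads and miR-9 alone 819 to 4072 of the neural reads. Of the fibroblast reads, miR-10b alone had 1375794 to 2324752. Reads of control replicate 1 stood apart in length: the mean over all mature arms was 21.8 nt there and 20.8 to 20.9 nt in the other 3 libraries. Most miR-30 reads of control replicate 1 (94.0% of mature-arm reads) started at base 1 of the RefSeq sequence, and those of the other libraries at base 2 (93.0% to 95.8%). The cause was not tested.

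One read form of 3 mature arms was at 0 in the tables analysed here, which limits their values below. In miR-30a, miR-30d and miR-30e, reads from the commonest start that end 2 bases beyond the RefSeq end and match the hairpin exactly numbered 0 in all 4 libraries. Searched in all read tables, the exact miR-30a form had 0 reads beside 12064 to 22324 miR-30a reads per library. No upper limit on its share in the cells is drawn from this count, since substituted reads of that length were present. Reads of that same length with 1 substitution at positions 17 to 21 numbered 282 and 126 in control cells and 323 and 254 in treated cells for miR-30a. For miR-30d they numbered 224 and 96, then 203 and 100, and for miR-30e 137 and 73, then 108 and 66. None had its substitution outside that stretch, whose bases in miR-30a and miR-30e are TGGAA.

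Reads 1 base shorter did not show this. Over the 3 arms and 4 libraries, reads ending 1 base beyond the RefSeq end had 41789 exact reads, 353 with 1 substitution at positions 17 to 21 and 1935 with 1 elsewhere. Reads ending 2 bases beyond had 0, 1992 and 0. Substituted reads in that stretch numbered 0.466 to 1.28 per 100 exact reads of the shorter form in any arm and library. The commonest change was A21C (RefSeq base first), with 179, 88, 216 and 159 reads over all ends of miR-30a and 72, 48, 63 and 42 of miR-30e. A21C was also seen over all ends of miR-30c, with 29, 8, 34 and 1 reads. For miR-30d, whose first bases and bases from position 14 on were compared with the miR-30a hairpin, the pattern was the same in kind. In miR-30c, which has other bases there, exact reads of this end numbered 0, 0, 1 and 0. The substituted reads of the form made up 0.843% to 2.11% of the counted miR-30a reads, 1.72% to 2.56% of miR-30d and 5.07% to 6.52% of miR-30e. These percents do not measure the exact form. At the ratio of substituted to exact reads of the shorter form, it would outnumber all counted reads of miR-30e. Whether that ratio holds for this end was not tested. The levels, star shares, start shares and end shares of miR-30a, miR-30d and miR-30e given below are over the reads the tables hold, without the exact form, whose amount is not known and may differ between the arms. The cause was not tested.

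**Figure D1:**
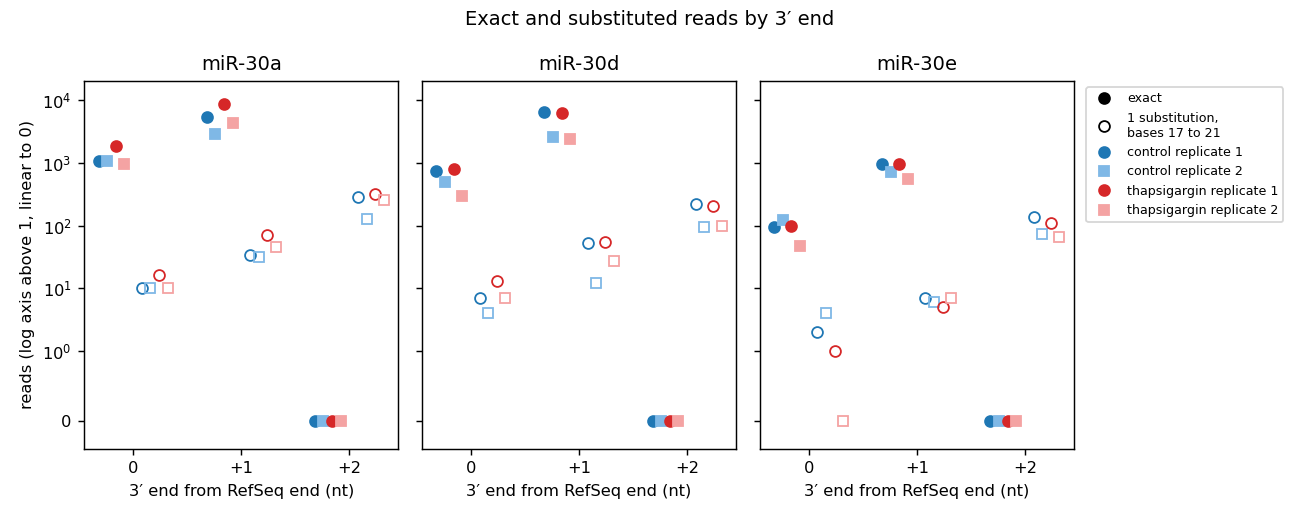
Reads from the commonest start of miR-30a, miR-30d and miR-30e by 3′ end, exact (filled) and with 1 substitution at bases 17 to 21 (open), per library, on an axis that is logarithmic above 1 and linear to 0. At ends 0 and +1 the exact reads outnumber the substituted ones, and at +2 there are 0 exact reads and 66 to 323 substituted ones.

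The first comparison asked whether the level of any miR-30 arm differed with thapsigargin. No mature arm separated the groups or passed the test, and miR-30a was the most abundant in each library. Levels are CPM scaled by TMM (trimmed mean of M values), and arms of like length are compared. Control cells had 2855 and 4574 CPM of miR-30a, against 3605 and 6305 CPM in treated cells (mean 3714 ± 1215 and 4955 ± 1909, SD, n = 2 each). miR-30d was at 2052 and 1707 CPM in control cells against 1810 and 2042 CPM in treated cells. In a bulk sample fewer cells with an RNA and less of it per cell cannot be told apart. For both arms the groups overlapped, and the miR-30d libraries lay closer together than those of miR-30a.

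miR-30c was at 1265 and 1049 CPM in control cells against 1061 and 479 CPM in treated cells, so 1 of the thapsigargin libraries lay within the control range and the other below it. miR-30b was at 496 and 304 CPM against 492 and 192 CPM. miR-30e was at 388 and 440 CPM against 319 and 531 CPM. The low miR-30b and miR-30c values were both those of thapsigargin replicate 2, the library with the fewest reads. edgeR's quasi-likelihood test gave log2 fold changes (thapsigargin over control) of 0.42 (SE 0.50) for miR-30a, -0.23 (SE 0.58) for miR-30b, -0.59 (SE 0.52) for miR-30c, 0.04 (SE 0.44) for miR-30d and 0.04 (SE 0.49) for miR-30e. Each had a Benjamini-Hochberg adjusted p of 0.987 over all 310 arms tested. Without thapsigargin replicate 2 the miR-30c value was -0.11, and without thapsigargin replicate 1 it was -1.32.

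By mean level over the 4 libraries, on the reads the tables hold, the order ran from miR-30a through miR-30d, miR-30c, miR-30e, miR-30b, miR-30e*, miR-30a*, miR-30d*, miR-30c-2* and miR-30c-1* to miR-30b*. miR-30a exceeded miR-30d in 4 of 4 libraries, by 1.39 to 3.09 times, and miR-30d exceeded miR-30c in 4 of 4. Neighbours further down were not all apart: miR-30c exceeded miR-30e in 3 libraries, miR-30e exceeded miR-30b in 2, and miR-30b exceeded miR-30e* in 2. The places of miR-30a, miR-30d and miR-30e in this order are without their form at 0.

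**Figure D2:**
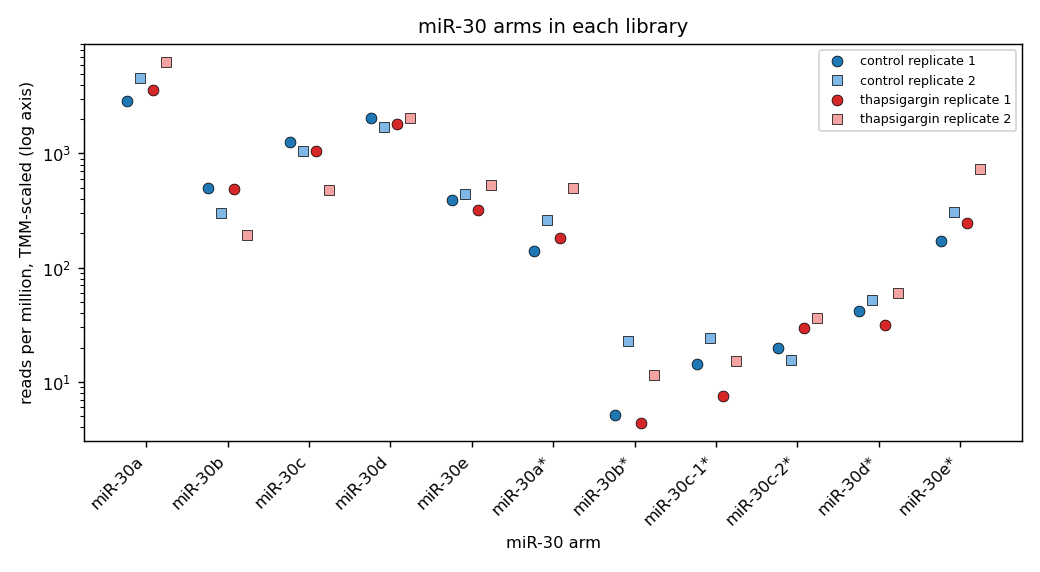
Level of each miR-30 arm in each library, in TMM-scaled CPM on a log axis; circles are replicate 1, squares replicate 2, blue control and red thapsigargin. The groups overlap for every arm but miR-30c-2*, where both thapsigargin libraries (29.7 and 36.6) lie above both controls (20.0 and 15.6).

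Among the star arms, miR-30c-2* was higher in both thapsigargin libraries than in both controls. Its reads numbered 108 and 51 in control cells against 184 and 70 in treated cells, which is 20.0 and 15.6 CPM against 29.7 and 36.6 CPM. The group means were 17.8 ± 3.08 CPM (SD, n = 2) and 33.1 ± 4.86 CPM (SD, n = 2). The groups did not overlap, yet the log2 fold change of 0.89 (SE 0.51) did not pass edgeR's test, with an adjusted p of 0.892. On total arm reads alone, without TMM, the values were 28.0 and 14.04 against 33.0 and 26.1 CPM, which overlap, and the log2 fold change was 0.49. The median log2 fold change of all 310 arms was -0.36 on total arm reads and -0.01 with TMM.

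The other star arm of miR-30c had the lower mean in treated cells. miR-30c-1* had 78 and 79 reads in control cells against 47 and 29 in treated cells, or 14.4 and 24.2 against 7.59 and 15.2 CPM, which overlap (log2 fold change -0.79, SE 0.61, adjusted p 0.987 in edgeR's test). Its fold change was -0.42 without control replicate 2, -0.38 without thapsigargin replicate 1 and -1.32 without thapsigargin replicate 2. miR-30e* was at 170 and 310 CPM in control cells against 245 and 735 CPM in treated cells, and its log2 fold change of 1.03 (SE 0.64, adjusted p 0.892 in edgeR's test) was 0.05 without thapsigargin replicate 2. miR-30a* was at 140 and 261 against 183 and 495 CPM (log2 fold change 0.76, SE 0.62, adjusted p 0.987 in edgeR's test). Both of these arms were highest in thapsigargin replicate 2 and overlapped between groups.

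miR-30d* was at 41.9 and 51.7 against 31.3 and 60.1 CPM, with a log2 fold change of -0.04 (SE 0.54). miR-30b* was the rarest arm, at 28 and 74 reads in control cells against 27 and 22 in treated cells, or 5.17 and 22.6 against 4.36 and 11.5 CPM, with a log2 fold change of -0.85 (SE 0.86). Both had an adjusted p of 0.987 in edgeR's test, and in both the groups overlapped. In all, edgeR's test with Benjamini-Hochberg adjustment called 0 of the 11 members, against 0 of 310 arms (0.0%), and 0 members had an unadjusted p under 0.05, against 12 of 310 arms (3.87%, with 2.26% higher and 1.61% lower). The count of called arms was also 0 by DESeq2, where 15 arms had an unadjusted p under 0.05, and by limma-voom, where 12 did. Of the members, 1 of 11 had groups that did not overlap, against 33.5% of all arms (17.4% higher and 16.1% lower). On total arm reads 3 members did not overlap, miR-30e, miR-30c-1* and miR-30d*, all lower in treated cells, against 31.6% of all arms (6.77% higher and 24.8% lower). The median log2 fold change of the members was 0.04, with 6 above and 5 below 0, and that of all arms was -0.01. The 310 arms are those that passed the filter on low counts, which all 11 members did.

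The second comparison set arms of the same paralogue against each other within a library, which needs no scaling. The miR-30c star arms come from different hairpins, and both hairpins were taken as 1 group with their shared mature arm. Between the miR-30c star arms, the share of miR-30c-2* was higher in both thapsigargin libraries than in both controls, in a design too small for its permutation test to reach 0.05. miR-30c-2* made up 58.1% (exact 95% interval 50.6 to 65.2) and 39.2% (30.8 to 48.2) of the reads of both miR-30c star arms in the controls. With thapsigargin it made up 79.7% (73.9 to 84.7) and 70.7% (60.7 to 79.4). The means were 48.6% ± 13.3 (SD, n = 2) and 75.2% ± 6.33 (SD, n = 2), and the exact two-sided permutation p was 0.333, the smallest that 2 against 2 libraries allow. The intervals cover counting error only. That of control replicate 1 reached 65.2%, above the lower bound of 60.7% in thapsigargin replicate 2.

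Set against mature miR-30c, miR-30c-2* had 1.58 and 1.49 reads per 100 in control cells against 2.80 and 7.63 per 100 in treated cells. edgeR's arm-level test of share (diffSpliceDGE) gave a log2 share ratio of 1.44, with an unadjusted p of 0.0288 and an adjusted p of 0.781 over 192 arms of 94 hairpin groups. Of those arms, 0 were called (0.0%), and 9 (4.69%) had an unadjusted p under 0.05, with 5 of them higher (2.6%). miR-30c-2* was the arm with rank 6 by p. Its ratio was 0.86 without thapsigargin replicate 2 and 2.21 without thapsigargin replicate 1.

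Among the counted reads, the star share was highest for miR-30e. Of miR-30a, miR-30d and miR-30e, this arm had the largest share of substituted reads of the form at 0 (5.07% to 6.52%). The mature count of miR-30e is in doubt, by an amount that is not known and may exceed the count itself. miR-30e* made up 30.4% and 41.3% of its hairpin's reads in control cells against 43.4% and 58.1% in treated cells, where the mature reads lack the exact form. The groups did not overlap, and the log2 share ratio of 0.55 did not pass (adjusted p 1.0 in edgeR's test). The ratio was 0.24 without thapsigargin replicate 2, 0.38 without control replicate 1 and 0.82 without control replicate 2. The star share of miR-30a was 4.68% and 5.39% against 4.84% and 7.29%, that of miR-30c 2.65% and 3.65% against 3.40% and 9.74%, and that of miR-30d 2.004% and 2.94% against 1.70% and 2.86%. For miR-30b it was 1.03% and 6.93% against 0.879% and 5.66%, and here both libraries numbered 2 were high. Of the 6 star arms, miR-30c-2* and miR-30e* (2) had shares that were higher in both thapsigargin libraries, against 19.0% of the 84 star arms tested.

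**Figure D3:**
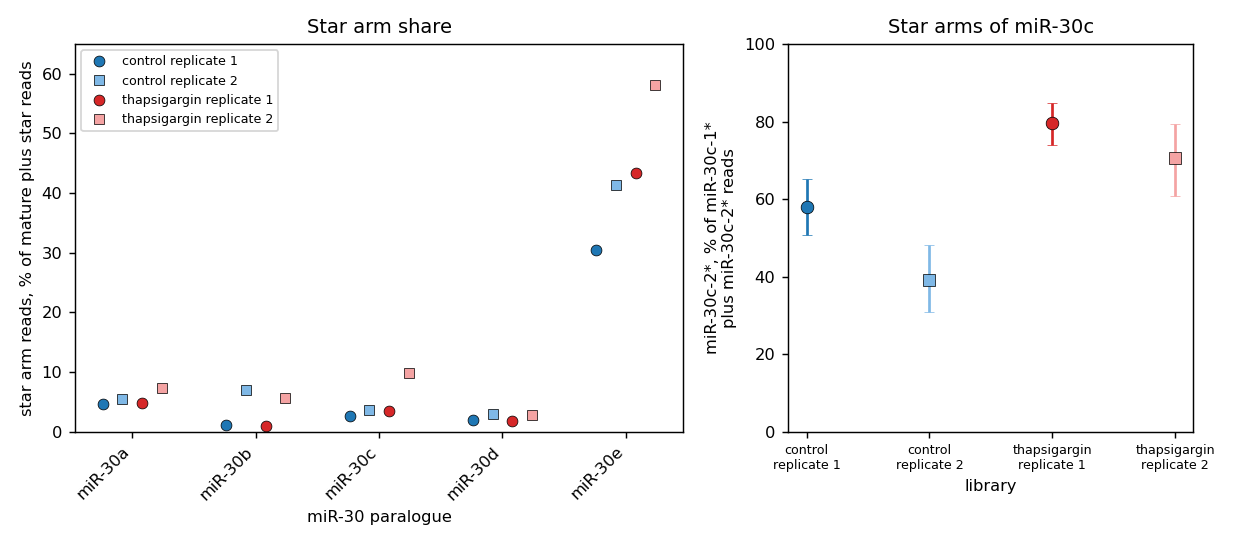
Left, star arm reads as a percent of mature plus star reads for each miR-30 paralogue; right, miR-30c-2* as a percent of the reads of both miR-30c star arms, with exact 95% binomial intervals. On the reads the tables hold, without the form at 0, miR-30e lies at 30.4% to 58.1% and the other paralogues at 0.879% to 9.74%, and miR-30c-2* lies at 58.1% and 39.2% in control cells against 79.7% and 70.7% in treated cells.

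Within the family, miR-30a took the largest share of counted miR-30 reads in each library, with 38.3% and 52.2% in control cells against 46.3% and 57.8% in treated cells. The mean share was 45.3% ± 9.82 (SD, n = 2) and 52.1% ± 8.16 (SD, n = 2), an exact permutation p of 0.667. miR-30c took 16.98% and 11.98% against 13.6% and 4.396%, and miR-30b 6.66% and 3.47% against 6.31% and 1.76%. These arms moved together between libraries: the ratio of miR-30c to miR-30b reads stayed within 2.16 to 3.45, whereas that of miR-30c to miR-30a ran from 0.0760 in thapsigargin replicate 2 to 0.443 in control replicate 1. For miR-30a and miR-30b the SD within each group was larger than the difference between the group means, and for miR-30c the groups overlapped. Among mature arms the share with the smallest SD in each group was that of miR-30e, with 5.21% and 5.02% in control cells against 4.10% and 4.87% in treated cells, which did not overlap (exact permutation p = 0.333). By level, 33.5% of all 310 arms did not overlap, and for shares within a family this was not counted.

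The 5′ ends were read next, since a start 1 base later changes the seed. To set aside the base by which control replicate 1 differs, starts were counted from the commonest start of each library. Most late-start reads of miR-30a and miR-30e end 2 bases beyond the RefSeq end, an end that is at 0 from the commonest start, so their shares are over a total that lacks that form and are not compared between arms. Of miR-30e reads, 25.5% and 17.5% in control cells and 25.9% and 21.2% in treated cells started 1 base later. Of miR-30a reads, 7.22% and 3.66% and then 8.33% and 6.56% did so.

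miR-30d had 1.83% and 0.932% against 2.45% and 2.07%, over a total that also lacks the form at 0. Its groups did not overlap (exact permutation p = 0.333), 1 of the 5 mature arms. How many of all arms separate by later starts was not counted, and by level 33.5% of 310 arms did not overlap. miR-30b and miR-30c had at most 0.472% in any library. In miR-30e, miR-30a, miR-30b and miR-30c the groups overlapped, and the difference for miR-30e was 2.02 percentage points beside SDs of 5.63 and 3.32 (n = 2 each).

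miR-30a* and miR-30e* do not hold the bases TGGAA. Of miR-30a* reads, 36.5% and 38.3% in control cells and 38.6% and 36.9% in treated cells started 1 base later. Of miR-30e* reads, 2.83% and 6.42% and then 4.68% and 4.62% did so. The star arms differ at base 18 alone. The 2 commonest reads of miR-30a* in control replicate 2, with the RefSeq seed bases in capitals, differ by their first base.
miR-30a*, commonest read: TTTCAGTcggatgtttgcagc
miR-30a*, next read: TTCAGTcggatgtttgcagc
The first had 266 reads and the next 182. The share of later starts was higher in miR-30a* than in miR-30e* in all 4 libraries, and in both arms the groups overlapped.

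**Figure D4:**
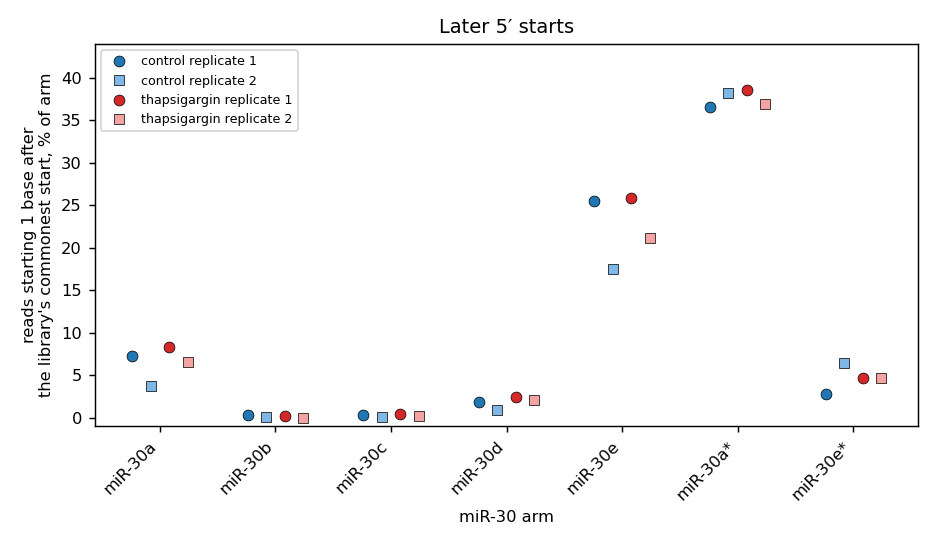
Share of reads of each arm that start 1 base after the commonest start of their library, by library. miR-30a* lies at 36.5% to 38.6% and miR-30e* at 2.83% to 6.42%, while miR-30e (17.5% to 25.9%), miR-30a (3.66% to 8.33%) and miR-30d are over totals that lack the form at 0.

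The commonest counted forms of miR-30e in control replicate 2 are shown for their starts and ends, with the RefSeq seed bases in capitals.
miR-30e, commonest read: GTAAACAtccttgactggaagc
miR-30e, next read: TAAACAtccttgactggaagct
The first had 718 reads and ended 1 base beyond the RefSeq end, and the next had 242 reads and ended 2 bases beyond it. Of templated miR-30e reads with the later start, 95.1% and 96.8% in control cells and 95.2% and 98.1% in treated cells ended at that place. For miR-30a it was 90.2% and 83.0%, then 86.8% and 86.8%. Since exact reads with that end are at 0 from the commonest start, the ends of early and late starts of these arms cannot be compared. In miR-30a*, 80.3% and 84.7%, then 77.2% and 86.5% of its templated late-start reads ended at the RefSeq end.

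The 3′ ends were then counted over the reads the tables hold, which lack the form at 0 in miR-30a and miR-30e. The 2 commonest counted forms of miR-30a are shown from control replicate 2.
miR-30a, short form: GTAAACAtcctcgactgga
miR-30a, long form: GTAAACAtcctcgactggaagc
The short form, 2 bases inside the RefSeq end, made up 36.3% and 61.3% of miR-30a reads in control cells against 28.6% and 35.6% in treated cells, over all starts. The long form, 1 base beyond it, made up 34.7% and 19.3% against 38.6% and 36.5%. Neither overlapped between the groups (exact permutation p = 0.333 for each), but control replicate 1 lay closer to both thapsigargin libraries than to control replicate 2. How many of all arms separate by such end shares was not counted. In control replicate 2 the short form had 9092 reads and the long form 2873, and in thapsigargin replicate 1 they had 6302 and 8493. The short form of miR-30e made up 4.45% to 9.94% in any library, and its long form 47.2% to 54.2%. miR-30c ended 1 base beyond the RefSeq end in 79.7% to 84.0% of its reads.

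**Figure D5:**
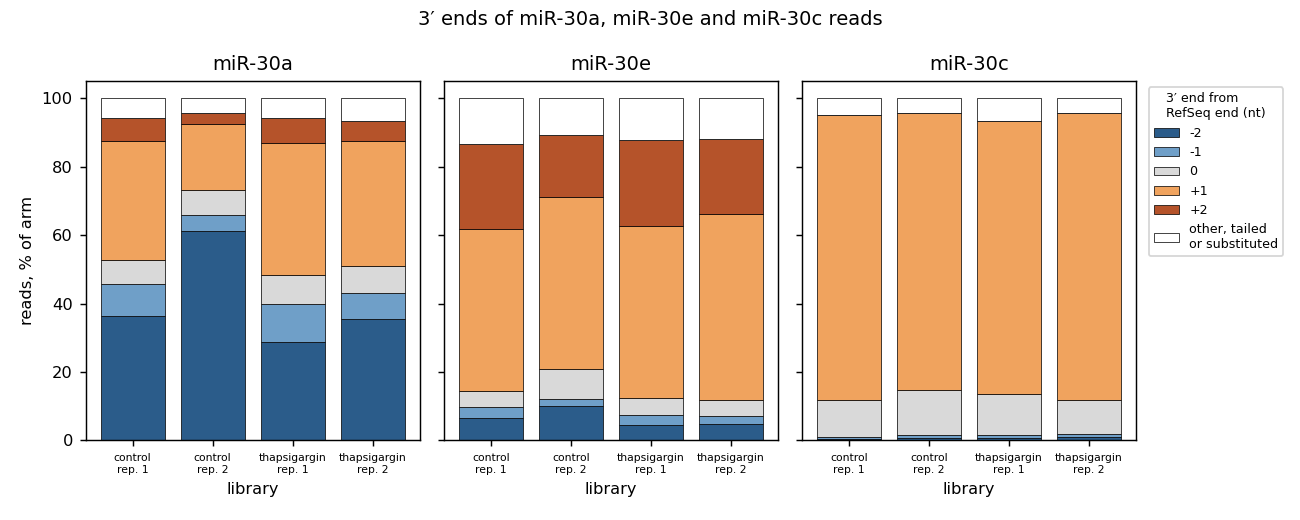
Templated 3′ ends of miR-30a, miR-30e and miR-30c reads as a percent of each arm, by library, in nt from the RefSeq end; +2 ends of miR-30a and miR-30e lack the exact form from the commonest start, and white is reads with added or substituted bases or another end. The short form (-2) makes up 28.6% to 61.3% of miR-30a and at most 9.94% of miR-30e, and miR-30c is mostly at +1.

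Reads whose only added bases were 1 or more T that the hairpin does not encode made up 21.4% and 23.7% of miR-30a* in control cells against 25.8% and 15.7% in treated cells. For miR-30e* they made up 12.1% and 12.5% against 11.3% and 11.7%. In the mature arms miR-30a, miR-30c and miR-30e such reads made up 0.0602% to 1.32%, with miR-30a at 0.142% and 0.0602% against 0.237% and 0.232%. In miR-30c-2* they were 0.926% to 3.92%, and in miR-30c-1* 1.28% and 0% against 6.38% and 3.45%, both on few reads. A T at a place where the hairpin has it was counted as templated. A mismatch at the last base of a read was counted as an added base, so a substitution there cannot be told apart from an added T. The groups did not overlap in miR-30e*, lower in treated cells, nor in miR-30a and miR-30c-1*, higher in treated cells (exact permutation p = 0.333 for each). The miR-30c-1* shares are of 78 and 79 reads in control cells against 47 and 29 in treated cells. How many of all arms separate by T tails was not counted, and by level 33.5% of 310 arms did not overlap.

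The arms whose profile over the 4 libraries was most like that of miR-30c-2*, by mean absolute difference of centred log2 CPM, were miR-98 of the let-7 family (0.023), miR-1843-5p (0.046) and miR-143 (0.083). miR-143, a fibroblast marker, was at 91065 and 74782 CPM in control cells against 147308 and 150093 CPM in treated cells. The measure rests on 4 libraries and on TMM scaling.

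miRNAs tied to the unfolded protein response in the literature were set beside the family. The list was chosen with earlier results of these data known, so the counts below only describe it and give no support. Of 10 listed as raised there, miR-30c-2* among them, 9 had reads and 8 were tested. Of these 8, 7 had a log2 fold change above 0 with a median of 0.66, against -0.01 for all arms, and 5 did not overlap and were higher, against 17.4% of all arms. On total arm reads 2 of the 8 were higher without overlap, against 6.77% of all arms. In edgeR's test 0 passed and 2 had an unadjusted p under 0.05, against 3.87% of all arms. The smallest p were those of miR-216b, with 2 and 1 control reads against 18 and 8, and miR-708*, at 66.1 and 62.4 against 127 and 321 CPM. miR-216b passed the filter on low counts through its treated libraries alone, so its place here was in part fixed by that filter. It is among the 5 without overlap and the 2 with an unadjusted p under 0.05 in edgeR's test. The one on the other side was miR-27a, at 2253 and 2229 against 2236 and 1834 CPM.

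Of 13 listed as lowered, all were tested, with 9 below 0 and 4 above and a median of -0.17. Of these, 3 were lower without overlap, against 16.1% of all arms, 2 were higher, against 17.4%, and 0 passed the test, with 1 at an unadjusted p under 0.05. On total arm reads 3 of the 13 were lower without overlap, against 24.8% of all arms, and 1 was higher, against 6.77%. On the lower side the smallest p were those of miR-503, with 19 and 10 control reads against 4 and 0, and miR-322, at 673 and 187 against 176 and 124 CPM. On the higher side they were those of miR-25, at 1428 and 1637 against 1904 and 3798 CPM, and miR-221, at 500 and 277 against 694 and 516 CPM. miR-503, the 1 with an unadjusted p under 0.05 in edgeR's test, passed the filter on low counts through its control libraries alone. Its place here, also among the 3 lower without overlap, was in part fixed by that filter.

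The 3′ UTR of mouse Xbp1 (989 nt in GENCODE M21) was searched on its own strand for the 7 letters that pair with each seed. It held 0 matches to TCTCCCA (miR-30c-2* and miR-30c-1*), 0 to TGTTTAC (mature arms) and 0 to ACTGAAA (miR-30a* and miR-30e*). Of 2947 3′ UTRs of like length, 12.2%, 10.7% and 11.5% held a match. This says only that these letters are not in this window.

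In the authors' deposited table, the 5 mature arms had log2 fold changes of 0.33 (miR-30a), -0.28 (miR-30b), -0.63 (miR-30c), -0.05 (miR-30d) and -0.05 (miR-30e). The authors' deposited table gives p-values of 0.345 to 0.941 for them. Of the 5, 3 had the same sign here, and the others, miR-30d and miR-30e, were within 0.1 of 0 in both.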

How the data were processed

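Small RNA libraries from 2 control and 2 thapsigargin samples were made with a small RNA kit, per the labels' protocols. The submitters' processing notes name CASAVA 1.8.1, cutadapt, Bowtie, DESeq 1.4.1 and the build mm9. The authors deposited whole-number counts of each distinct read, in separate tables for mature arms, star arms and hairpins, with the number of names each read matched. The authors' table of log2 fold changes and p-values has no per-sample values, per the file headers.

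Reads matching 1 name were summed here per arm. Summary tables were not used, since that of thapsigargin replicate 2 does not match its reads. edgeR 4.0.16 in R 4.3.3 (TMM, trended dispersion, robust quasi-likelihood, two-sided, filterByExpr minimum count 10, Benjamini-Hochberg at 0.05) was fitted on all arms that passed, and diffSpliceDGE on hairpin groups with 2 or more arms (natural-log coefficients converted to log2). Standard errors are the fold change over the square root of F. Exact permutation tests and intervals used scipy 1.17.1. The scripts were tested on simulated data. Read forms were compared with RefSeq hairpins (GRCm38.p6), and hosts and 3′ UTRs came from GENCODE M21, not the submitters' build. Results were recomputed with DESeq2 1.42.0, limma-voom 3.58.1, other scalings, no filter, ambiguous reads, control replicate 1 reads cut by a base, a replicate block and each library left out.

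The members, lists and tests were chosen with earlier results of these data known. All 11 miR-30 names were reported. All were given in full, as all passed the filter. Of other arms, only the 3 most like miR-30c-2*, those sharing a miR-30 seed, and ER stress list members with the 2 smallest p in each direction were named. The precision of each value is limited by 2 libraries a group.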

Additional observations from a re-analysis of the deposited data

How the results depend on the processing

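No miR-30 arm that could be tested was called under the 11 other settings, DESeq2 and limma-voom among them, or with each library left out (with the mature table alone only the 5 mature arms were tested), and the arm share test called 0 under 3 other settings and with each library left out. Over all arms the count was 0 except for 3 without the filter on low counts, 6 with control replicate 1 reads shortened together with the replicate block, and 3 without control replicate 2 (range 0 to 3 with each library left out). Of 159 member values under an alternative, 142 kept their sign. The log2 fold change of miR-30c-2* ranged from 0.49 to 0.91 over other settings (adjusted p 0.149 to 0.998 by edgeR, DESeq2 or limma-voom). With each library left out it ranged from 0.69 to 1.08, and its log2 share ratio from 0.86 to 2.21.

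Under other settings only miR-30d and miR-30e, with values near 0, changed sign. With a library left out, values further from 0 did so too. The log2 fold change of miR-30b* went from -0.85 to 0.51 without control replicate 2. That of miR-30a* went from 0.76 to -0.11 without thapsigargin replicate 2. miR-30d was at -0.35 on total arm reads and -0.001 with both RLE and DESeq2 (-0.0013 each), and miR-30e at -0.36 on total arm reads, -0.031 with limma-voom and -0.01 (-0.0062) with the replicate block. With each library left out, log2 fold changes ranged from -0.023 to 0.75 for miR-30a, -1.11 to 0.31 for miR-30b, -0.13 to 0.18 for miR-30d, -0.36 to 0.31 for miR-30e, -0.11 to 1.27 for miR-30a*, -1.63 to 0.51 for miR-30b*, -1.32 to -0.38 for miR-30c-1* and -0.56 to 0.32 for miR-30d*. Log2 share ratios ranged from -0.079 to 0.51 for miR-30a*, -1.90 to 1.05 for miR-30b*, -1.21 to 0.81 for miR-30c-1*, -0.51 to 0.22 for miR-30d* and 0.24 to 0.82 for miR-30e*. The difference in miR-30a share ranged from -0.16 to 13.7 percentage points, and that in later starts of miR-30e from -1.97 to 5.999. The cause of these moves was not tested.

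The replicate numbers are not said to mark a shared batch. Deviations from the group mean of the libraries numbered 1 correlated at 0.57 over 310 arms. With the replicate block 0 arms were called and 29 had an unadjusted p under 0.05, and the log2 fold change of miR-30c-2* was 0.88. Depth limits the rare star arms: miR-30b*, miR-30c-1* and miR-30c-2* had 22 to 184 reads a library.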
